A study of Homo sapiens with 18 samples.

Results

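SUDHL6 and SUDHL4 are human cell lines from diffuse large B cell lymphoma, and their responses to a BCL6 inhibitor were compared gene by gene. The quantity described is the response difference: the change of a gene in SUDHL6 (inhibitor minus DMSO) minus its change in SUDHL4. A positive value means that the gene rose more, or fell less, in SUDHL6 than in SUDHL4. It was read only in genes that both lines express, taken as a mean of at least 5 CPM, the unit of reads scaled to a library's total, in the DMSO libraries of each line. Of 23250 listed genes, 9352 reached that level in SUDHL6 and 9285 in SUDHL4, and 8726 reached it in both. The 626 genes that passed in SUDHL6 alone and the 559 that passed in SUDHL4 alone were left aside.

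The groups were SUDHL6 cells given the compound 79-6.1085 at 10 µM for 12 h, SUDHL6 cells given the vehicle DMSO for 12 h, SUDHL4 cells given the compound in the same way, and SUDHL4 cells given DMSO. Each group had 3 RNA-seq libraries, so 12 of the 18 libraries of the series were used. The other 6 came from a further line, Farage, and enter no test of the difference. Each line stands for itself only, since a pair of lines cannot represent a class of lymphoma. The labels number the replicates but do not say whether they were separate cultures, so the p-values measure the spread between these libraries, which may be technical.

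BCL6 is a transcriptional repressor that germinal centre B cells need and that many lymphomas of this origin keep expressing. It silences genes by recruiting corepressors, among them BCOR, which belongs to a variant Polycomb repressive complex 1. Polycomb complex 2, whose catalytic subunit is EZH2, places a methyl mark on histone H3 that proteins of the CBX family, CBX8 included, can bind. The study's title names EZH2, BCL6 and a complex of CBX8 with BCOR. The question here is which parts of the response to the inhibitor differ in size or direction between the lines.

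The libraries hold between 6289956 and 25492726 reads in listed genes. The lowest totals belong to the replicate 3 libraries of SUDHL6, with 6289956 for the inhibitor and 7359083 for DMSO, while the other 10 have at least 16867228. Replicate 3 of the SUDHL4 DMSO group lay part of the way toward the inhibitor libraries: over the 544 shared genes that changed at least 4-fold in SUDHL4 it held a median of 16.8% of the change. All 12 B cell markers were expressed in both lines. Their summed level was between 2339 and 3534 CPM in SUDHL6 with inhibitor and between 6015 and 6625 CPM in SUDHL6 with DMSO. It was between 4919 and 5051 CPM in SUDHL4 with inhibitor and between 7214 and 7762 CPM in SUDHL4 with DMSO. Markers of T and NK cells summed to at most 134.8 CPM, mostly from LCK, and myeloid markers to at most 21.1 CPM, mostly from CD68. The 12 epithelial and stromal markers stayed at or under 0.48 CPM in every SUDHL6 library. In SUDHL4 they summed to between 24.3 and 27.0 CPM with inhibitor and between 63.4 and 70.3 CPM with DMSO, mostly from DCN. The part of these markers in the results was not tested.

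Both lines shared most of their response. MYC and several ribosome-building, NRF2, glycolysis and class II antigen presentation genes were among those whose response differed. A gene was called changed at an adjusted p under 0.05 (limma on log2(CPM + 1), two-sided, Benjamini-Hochberg over all 12041 genes tested), and all log2 changes below are on that scale. In SUDHL6, 2345 shared genes rose (26.9%) and 3834 fell (43.9%). In SUDHL4, 2132 rose (24.4%) and 4329 fell (49.6%). These counts depend on the processing. Scaling by the median of ratios, explained below, gave 3044 rising and 3152 falling in SUDHL6, and 3102 and 3244 in SUDHL4. Array weights by group gave 2022 rising and 3410 falling in SUDHL6, and 2471 and 4847 in SUDHL4. Across the shared genes the responses of the lines had a correlation of 0.841, a description over genes that are not independent of each other. The response had the same sign in both lines in 7295 genes, 83.6% of the shared set.

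The difference itself was called for 3174 of all genes tested, 26.4%, and for 2150 of the shared genes, 24.6%. Of these, 1463 had a higher response in SUDHL6 (16.8%) and 687 a lower one (7.87%). That split depends on how the libraries are scaled. CPM left the median shared gene at -0.20 in SUDHL6 and -0.33 in SUDHL4. Scaling by the median of ratios, which sets the typical gene to no change, moved these medians to -0.02 and -0.03 and the median difference to -0.02, a shift of 0.12, and it gave 1065 higher responses (12.2%) and 1059 lower ones (12.1%). Both scalings called 1748 genes with the same sign, 1061 of them higher and 687 lower in SUDHL6. A difference of at least 2-fold was called for 488 genes and one of at least 4-fold for 23. The median standard error of the difference was 0.19. The call held in each of the 12 fits that left out 1 library for 1345 genes, 943 higher and 402 lower.

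**Figure D1:**
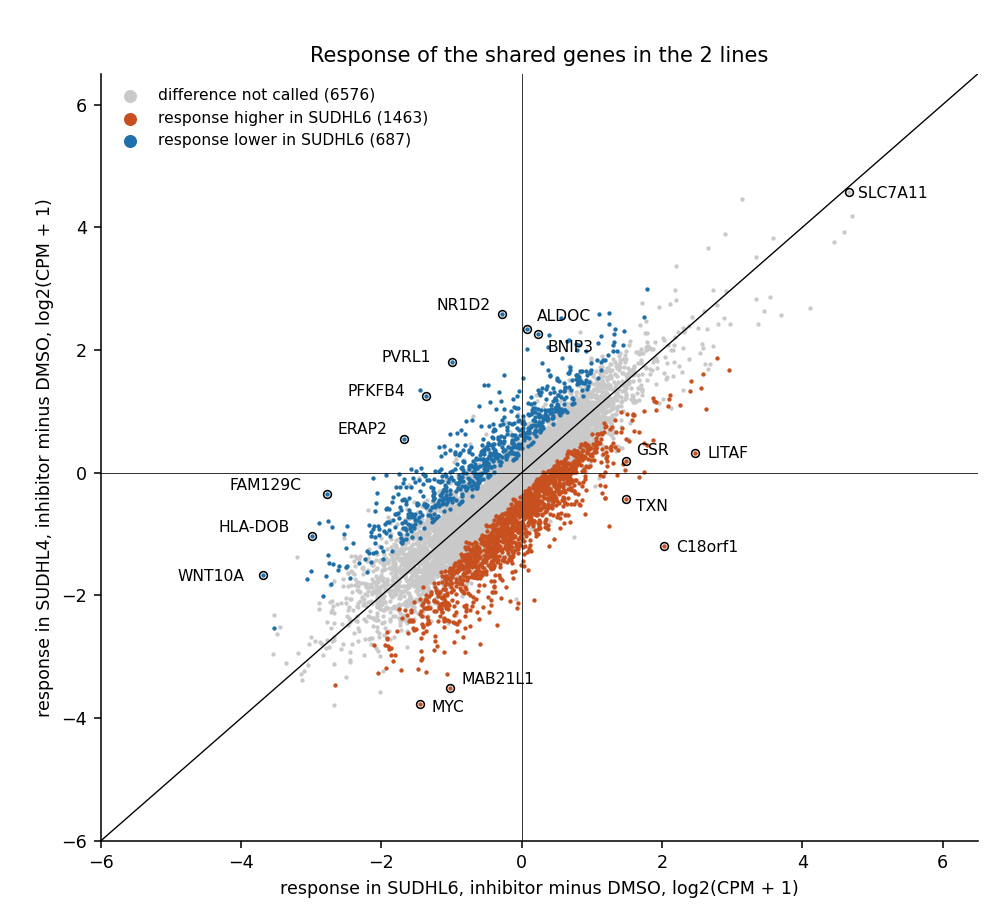
Response of the 8726 shared genes in SUDHL6 (horizontal axis) and SUDHL4 (vertical axis), each inhibitor minus DMSO on the log2(CPM + 1) scale, with the line of equal response. Grey points have no called difference, orange points a higher response in SUDHL6 (1463 genes) and blue points a lower one (687 genes). Most genes lie near the line, MYC lies far below it, and ALDOC and BNIP3 lie far above it.

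The called differences were sorted by what each line did. Of the 2150, 691 (32.1%) changed the same way in both lines and further in SUDHL4, 553 of them by falling. A further 606 (28.2%) were called in SUDHL4 alone, of which 455 fell and 151 rose. Another 413 (19.2%) were called in SUDHL6 alone, of which 236 rose and 177 fell. Changes in the same direction that were larger in SUDHL6 made up 277 genes (12.9%), 107 rising and 170 falling. The lines went in opposite directions in 154 genes (7.2%), and 9 genes were called in neither line. This sorting used the main fit on CPM, and the calls within each line depend on scaling and weights, as given above. Under median-of-ratios scaling the difference kept its call and sign in 591 of the 691 genes, 481 of the 606 and 310 of the 413. It did so in 212 of the 277, 151 of the 154 and 3 of the 9. Whether each gene kept its class was not counted, except for opposite directions, described below.

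MYC fell in both lines and fell much further in SUDHL4. MYC is the transcription factor that drives growth, ribosome assembly and nucleotide synthesis. In SUDHL6 its level was 115, 126 and 134 CPM with inhibitor and 349, 361 and 318 CPM with DMSO. In SUDHL4 it was 25.8, 27.2 and 26.8 CPM with inhibitor and 404, 409 and 325 CPM with DMSO. The inhibitor and DMSO libraries did not overlap in either line, and the DMSO libraries of the lines lay in a similar range. The log2 change was -1.45 in SUDHL6 and -3.78 in SUDHL4, a difference of 2.33 ± 0.14 (SE, n = 3 libraries in each of 4 groups; adjusted p = 4.52e-06).

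The list of MYC targets and ribosome biogenesis genes followed the same pattern in part. Of its 35 shared members, 32 fell in each line, with a median change of -1.03 in SUDHL6 and -1.75 in SUDHL4. The difference was higher in SUDHL6 for 17 members and lower for 3, with a median of 0.47 against 0.10 over all shared genes. The share called was 57.1%, against 24.6% of all shared genes, where 16.8% were higher and 7.87% lower. Median-of-ratios scaling gave 15 higher and 3 lower. NOP2, an rRNA methyltransferase of the large ribosomal subunit, had 140, 163 and 157 CPM with inhibitor and 219, 231 and 216 CPM with DMSO in SUDHL6. In SUDHL4, NOP2 had 46, 45.7 and 48.2 CPM with inhibitor and 173, 181 and 153 CPM with DMSO. The 3 SUDHL4 inhibitor libraries were thus the lowest of the 12, and the difference was 1.30 (adjusted p = 3.7e-05). POLR1B, the second largest subunit of RNA polymerase I, had 43.8, 51.1 and 55.3 CPM with inhibitor and 123, 114 and 118 CPM with DMSO in SUDHL6. In SUDHL4, POLR1B had 12.0, 13.4 and 14.1 CPM with inhibitor and 88.4, 96.9 and 80.9 CPM with DMSO, for a difference of 1.43 (adjusted p = 7.68e-05). The largest subunit, POLR1A, differed by 1.36, the nucleolar proteins NOP16 and RRS1 by 1.38 and 1.24, and the nucleostemin gene GNL3 by 1.20. GRWD1, a histone-binding ribosome assembly factor, was at 86.7 ± 3.59 CPM with inhibitor and 97.2 ± 4.84 CPM with DMSO in SUDHL6 and did not pass the test there. It fell in SUDHL4, to 22.0 ± 2.48 CPM with inhibitor, against 51.1 ± 3.97 CPM with DMSO (SD, n = 3).

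The 3 members that went the other way were FBL, LDHA and TFAP4. FBL, the methyltransferase of box C/D small nucleolar RNPs, fell by 1.17 in SUDHL6 and fell by 0.37 in SUDHL4, where the fall did not pass under median-of-ratios scaling (-0.06, adjusted p = 0.614). TFAP4, a transcription factor that MYC is known to activate, had 2.41, 4.0 and 4.35 CPM with inhibitor and 26.2, 32.8 and 26.2 CPM with DMSO in SUDHL6. In SUDHL4, TFAP4 had 12.4, 14 and 11.5 CPM with inhibitor and 25.3, 26.2 and 21.5 CPM with DMSO. It therefore fell further in the line where MYC fell less, with a difference of -1.81 (adjusted p = 0.000384). MIR17HG, the host transcript of the miR-17-92 cluster and a known MYC target, was outside the list and among the largest differences of the shared set. In SUDHL6 it had 9.77, 4.84 and 10.5 CPM with inhibitor and 11.2, 8.42 and 12.0 CPM with DMSO, and the groups overlapped. In SUDHL4, MIR17HG had 1.36, 1.28 and 1.43 CPM with inhibitor and 11.9, 11.5 and 13.5 CPM with DMSO, and the difference was 2.14 (adjusted p = 0.000675).

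Nucleotide synthesis genes also fell in both lines. Of 29 shared members of the list of purine, pyrimidine and deoxynucleotide synthesis genes, 28 fell in SUDHL6 and 27 in SUDHL4, and the difference was higher in SUDHL6 for 5 and lower for 1. The median difference was 0.17, near that of all shared genes, and 20.7% of members were called, against 24.6% of all shared genes. The higher count was 9 with the block within SUDHL6, 10 without SUDHL6 inhibitor 1, and 3 without SUDHL4 DMSO 1, SUDHL4 DMSO 2, SUDHL4 inhibitor 1, SUDHL6 DMSO 2 or SUDHL6 inhibitor 2. CTPS (now CTPS1), which makes CTP, had 133, 121 and 147 CPM with inhibitor and 155, 159 and 152 CPM with DMSO in SUDHL6. In SUDHL4, CTPS had 20.6, 21.9 and 20.3 CPM with inhibitor and 78.6, 85.1 and 72.8 CPM with DMSO. The fall in SUDHL6 was small, at -0.22, and did not pass under median-of-ratios scaling (-0.03, adjusted p = 0.811), and the difference was 1.64 (adjusted p = 1.17e-05). The purine enzymes GART and PFAS differed by 0.82 and 0.79, and IMPDH2, the inosine monophosphate dehydrogenase of proliferating cells, by -0.51. ATIC, another purine enzyme, is described below as a gene that fell alike in both lines.

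Promoters of the growth genes are shown because the E-box CACGTG is a known binding sequence of MYC. Promoter windows came from RefSeq on GRCh38.p14 and run from 250 bases before to 50 bases after the annotated start. They were found for 7215 of the 8726 shared genes, 82.7%. CACGTG, which reads the same on both strands, occurred in 11.2% of the shared genes' windows and in 7.43% of all windows in the table. It occurred in 9 of 27 windows of the MYC target list (33.3%). By response difference, it was in 2 of 13 members with a higher response in SUDHL6, both of 2 with a lower one and 5 of 12 with none called. A match describes the letters of the window and is no measure of binding. NOP2 and PES1 were the 2 members with a higher response that hold the E-box. PES1, a partner of BOP1 in large-subunit assembly, had a difference of 0.62, which did not pass under median-of-ratios scaling (0.50, adjusted p = 0.0602). The windows lie at chr12:6568242-6568541 and chr22:30591861-30592160, both on the minus strand, with the E-box in capitals, 35 and 13 bases past the start.
NOP2: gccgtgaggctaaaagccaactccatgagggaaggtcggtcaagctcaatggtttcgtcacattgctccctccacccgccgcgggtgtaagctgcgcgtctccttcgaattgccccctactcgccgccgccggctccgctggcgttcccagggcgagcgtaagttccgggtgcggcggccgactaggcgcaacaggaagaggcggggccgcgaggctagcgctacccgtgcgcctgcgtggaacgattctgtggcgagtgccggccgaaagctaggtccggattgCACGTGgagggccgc
PES1: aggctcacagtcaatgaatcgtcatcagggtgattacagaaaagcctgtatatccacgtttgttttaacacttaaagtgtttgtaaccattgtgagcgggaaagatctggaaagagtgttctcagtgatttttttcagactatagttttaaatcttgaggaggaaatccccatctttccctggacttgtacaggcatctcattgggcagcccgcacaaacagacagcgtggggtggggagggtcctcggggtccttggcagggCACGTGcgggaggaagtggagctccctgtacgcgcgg

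Glycolysis and hypoxia genes differed in the other sense. The list holds enzymes that split glucose and genes that low oxygen is known to induce through the factor HIF1. Of its 22 shared members, 13 rose and 3 fell in SUDHL4, while 5 rose and 8 fell in SUDHL6. The response was lower in SUDHL6 for 15 members and higher for 0 by limma (1 at an unadjusted p under 0.05, and 0 by edgeR and DESeq2), with a median difference of -0.89 against 0.10 over all shared genes. The main fit called 68.2% of members, against 24.6% of all shared genes, where 7.87% were lower. Median-of-ratios scaling gave 16 lower and 0 higher. Leaving out the SUDHL4 DMSO 3 library and both SUDHL6 replicate 3 libraries gave 14 lower and 1 higher.

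ALDOC, the brain form of aldolase, had 43.8, 46 and 49.2 CPM with inhibitor and 38.6, 45.3 and 48.0 CPM with DMSO in SUDHL6, where the groups overlapped. In SUDHL4, ALDOC had 463, 511 and 462 CPM with inhibitor and 79.3, 75.7 and 134 CPM with DMSO, the highest DMSO value being the library that leans toward the inhibitor. The difference was -2.27 (adjusted p = 0.000106). BNIP3, a mitophagy receptor induced in hypoxia, showed the same picture. It had 20.2, 16.9 and 19.7 CPM with inhibitor and 13.6, 15.1 and 19.5 CPM with DMSO in SUDHL6. In SUDHL4, BNIP3 had 127, 120 and 123 CPM with inhibitor and 20.7, 20.6 and 36.3 CPM with DMSO, a difference of -2.03 (adjusted p = 0.00038). P4HA1, a subunit of collagen prolyl hydroxylase, rose in both lines. It had 66.4, 57.3 and 61.8 CPM with inhibitor and 36.4, 39.0 and 49.8 CPM with DMSO in SUDHL6. In SUDHL4, P4HA1 had 330.4, 326.5 and 314.5 CPM with inhibitor and 45.4, 43.8 and 87.1 CPM with DMSO, a difference of -1.95 (adjusted p = 0.000816).

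Other called members differed in how they moved. VEGFA, a growth factor for vessels, and BNIP3L, a relative of BNIP3, rose in both lines and further in SUDHL4, with differences of -1.21 and -1.48. ALDOA, TPI1, PGK1 and the glucose transporter SLC2A1 rose in SUDHL4 by 0.96, 1.36, 0.70 and 1.0 and did not pass the test in SUDHL6, where they changed by 0.10, 0.35, 0.00 and 0.35. Under median-of-ratios scaling ALDOA, TPI1 and SLC2A1 rose in SUDHL6 as well, by 0.29, 0.54 and 0.54 (adjusted p = 0.0335, 0.0176 and 0.00972). PFKP, ENO1 and LDHA fell in SUDHL6 (-0.75, -0.53 and -0.83) and rose in SUDHL4 (0.34, 0.39 and 0.37). PFKP makes fructose 1,6-bisphosphate, ENO1 is an enolase and LDHA makes lactate. HK2, a hexokinase, fell by 1.16 in SUDHL6 and had no called change in SUDHL4 (-0.13). GPI, the phosphoglucose isomerase, changed by -1.13 in SUDHL6 and -0.33 in SUDHL4, a fall in both lines that did not pass in SUDHL4 under median-of-ratios scaling (-0.01, adjusted p = 0.929). PDK1, a kinase that restrains pyruvate dehydrogenase, had a difference of -0.65 with neither change called (-0.35 and 0.30). PDK1 rose in SUDHL4 under median-of-ratios scaling (0.61, adjusted p = 0.00502). KDM3A, a histone demethylase that hypoxia induces, rose alike, by 2.03 in SUDHL6 and 2.16 in SUDHL4, and its difference of -0.13 did not pass the test (adjusted p = 0.757).

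The promoters of ALDOC, BNIP3 and P4HA1 are shown because they are the members furthest apart between the lines, and each holds ACGTG, the core of the hypoxia response element. ACGTG was searched on both strands, and every CACGTG contains it. It occurred in 29.1% of the shared genes' windows, in 21.6% of all 27305 windows and in 10 of 20 windows of the glycolysis and hypoxia list (50%). Among members with a lower response in SUDHL6 it was in 8 of 13, and among members with no called difference in 2 of 7. All 3 lie on the minus strand, ALDOC at chr17:28576846-28577145, BNIP3 at chr10:131981874-131982173 and P4HA1 at chr10:73096817-73097116. Capitals mark ACGTG or its reverse complement CACGT, which start at positions -240, -239 and -28 from the start in ALDOC, -134 and -133 in BNIP3 and -86 in P4HA1.
ALDOC: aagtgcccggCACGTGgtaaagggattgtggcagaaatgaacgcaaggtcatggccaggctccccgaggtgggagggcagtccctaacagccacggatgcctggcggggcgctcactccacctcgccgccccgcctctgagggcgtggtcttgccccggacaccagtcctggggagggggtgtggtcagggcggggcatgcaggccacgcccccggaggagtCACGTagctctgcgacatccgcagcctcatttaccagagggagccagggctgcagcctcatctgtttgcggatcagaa
BNIP3: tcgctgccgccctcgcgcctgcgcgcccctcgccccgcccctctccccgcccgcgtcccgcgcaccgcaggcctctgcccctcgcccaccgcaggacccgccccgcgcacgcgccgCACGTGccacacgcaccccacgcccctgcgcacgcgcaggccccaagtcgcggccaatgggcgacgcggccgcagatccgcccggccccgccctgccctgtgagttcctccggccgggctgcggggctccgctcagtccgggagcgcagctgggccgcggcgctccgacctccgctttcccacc
P4HA1: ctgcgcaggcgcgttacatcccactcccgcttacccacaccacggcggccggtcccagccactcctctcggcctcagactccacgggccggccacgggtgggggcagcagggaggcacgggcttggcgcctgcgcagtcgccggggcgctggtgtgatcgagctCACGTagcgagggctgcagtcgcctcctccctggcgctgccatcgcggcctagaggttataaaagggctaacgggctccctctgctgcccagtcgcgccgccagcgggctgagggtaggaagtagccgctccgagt

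NRF2 target genes rose in both lines, and several rose further in SUDHL6. NRF2 is the transcription factor that answers oxidative and electrophilic stress with enzymes of glutathione, thioredoxin and NADPH metabolism. Of 16 shared members, 13 rose in SUDHL6 and 9 in SUDHL4, with median changes of 1.91 and 1.12. The difference was higher in SUDHL6 for 6 and lower for 1, and its median was 0.66. The share called was 43.8%, against 24.6% of all shared genes, where 16.8% were higher and 7.87% lower. Without SUDHL4 DMSO 3, the library that leans toward the inhibitor, the median was 0.40. Both counts were the same under median-of-ratios scaling. A block for replicate number within SUDHL6 gave 9 higher and 1 lower.

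TXN, the disulfide reductase thioredoxin, had 119, 92.7 and 122 CPM with inhibitor and 37.9, 27.6 and 55.7 CPM with DMSO in SUDHL6. In SUDHL4, TXN had 120, 119 and 111 CPM with inhibitor and 167, 153 and 151 CPM with DMSO. It rose in SUDHL6 with no overlap and had no called change in SUDHL4, at -0.43, and the difference was 1.91 (adjusted p = 0.000539). GSR, glutathione reductase, had 156, 135 and 120 CPM with inhibitor and 47.0, 48.3 and 48.4 CPM with DMSO in SUDHL6. In SUDHL4, where DMSO levels were already higher, it had 227, 226 and 243 CPM with inhibitor and 195, 203 and 209 CPM with DMSO, a difference of 1.29 (adjusted p = 5.64e-05).

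Other members with a higher response were PRDX1, TALDO1 and SRXN1, with differences of 1.01, 1.0 and 0.91. PRDX1 is a peroxidase that thioredoxin serves, TALDO1 is the transaldolase of the pentose phosphate pathway, and SRXN1 repairs oxidised peroxiredoxins. TKT, transketolase, was the member with a lower response, at -0.47. Members with the largest rises did not differ by the test. SLC7A11, the cystine importer, had 382, 182 and 222 CPM with inhibitor and 7.13, 9.10 and 10.7 CPM with DMSO in SUDHL6. In SUDHL4, SLC7A11 had 582, 541 and 511 CPM with inhibitor and 10.9, 10.7 and 86.5 CPM with DMSO. Its changes were 4.66 in SUDHL6 and 4.57 in SUDHL4, and the difference of 0.09 has a wide 95% interval, -1.75 to 1.94. SQSTM1, an autophagy receptor, was at 1946 ± 547 CPM with inhibitor and 87.1 ± 16.5 CPM with DMSO in SUDHL6, and at 1635 ± 179 CPM with inhibitor and 144.2 ± 115 CPM with DMSO in SUDHL4 (SD, n = 3). The large SD of that last group comes from 1 library at 277 CPM, against 75.9 and 79.99 CPM in the other two.

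**Figure D2:**
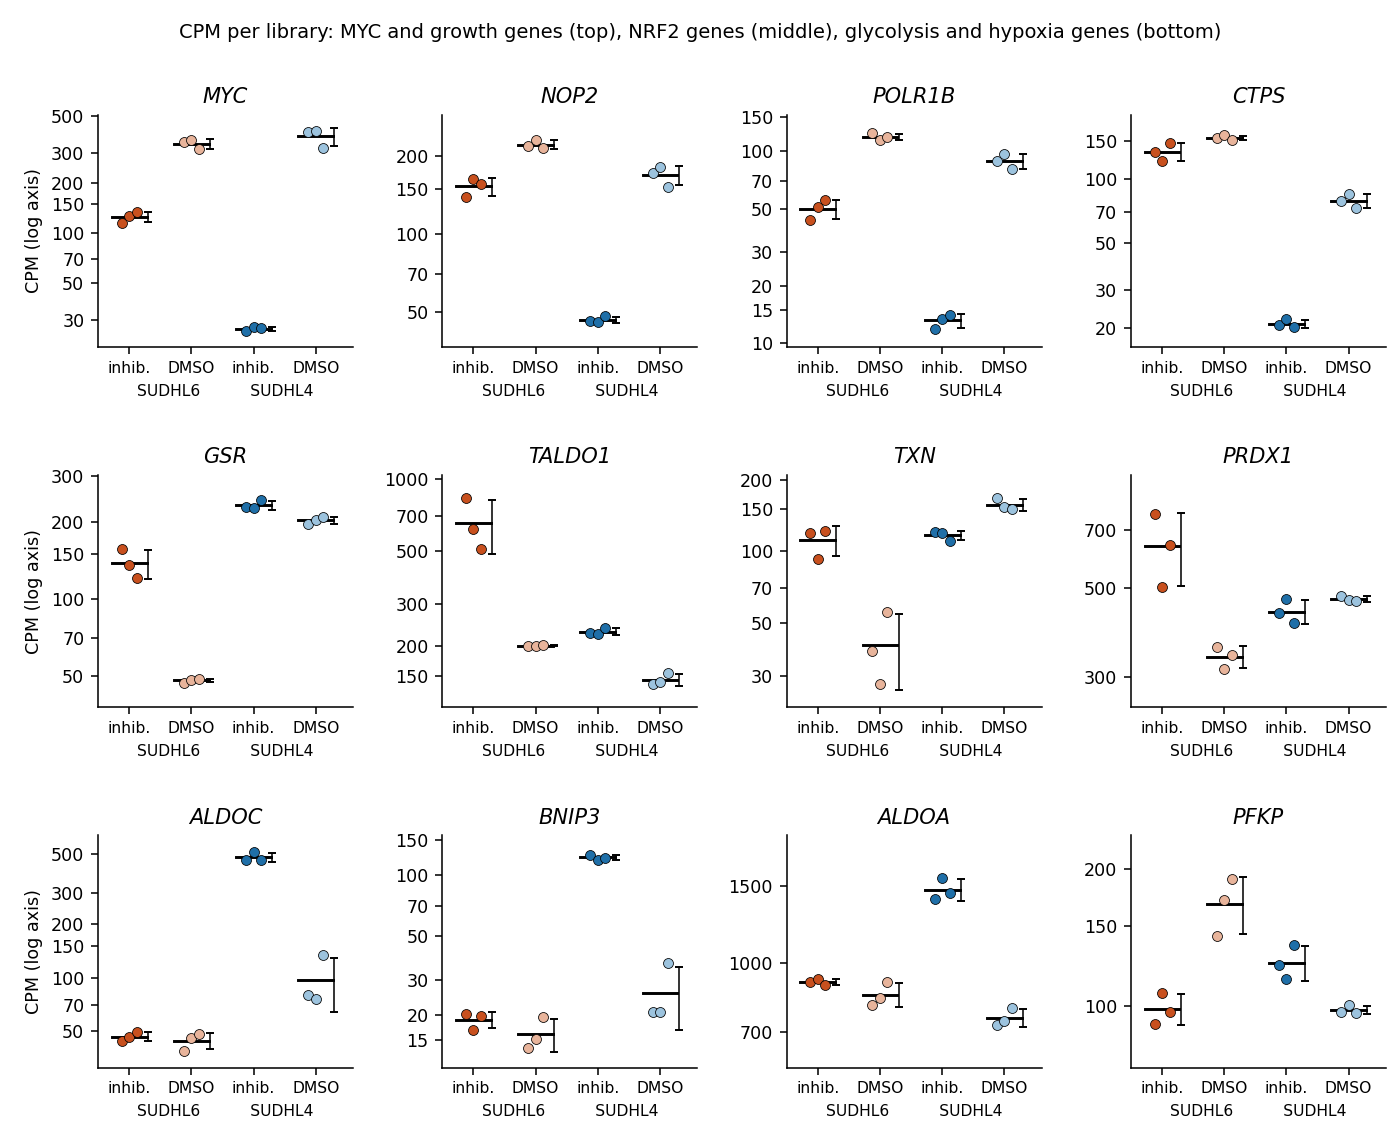
CPM of 12 genes in each library (points; log axes), with the group mean (horizontal line) and SD (bar, n = 3), for SUDHL6 (inhibitor, DMSO) and SUDHL4 (inhibitor, DMSO) from left to right in each panel. MYC and growth genes (top) drop further in SUDHL4, NRF2 genes (middle) rise in SUDHL6, and ALDOC, BNIP3 and ALDOA (bottom) rise in SUDHL4.

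Stress responses that rise strongly with the inhibitor were largely shared. Of 24 genes of the ATF4 response, which induces amino acid transporters and synthetases, 20 rose in SUDHL6 and 21 in SUDHL4. The difference was higher in SUDHL6 for 1 and lower for 2. The share called, 12.5%, was below the 24.6% of all shared genes. AARS (now AARS1), the alanyl-tRNA synthetase, did not pass the test in SUDHL6 (0.29) and rose in SUDHL4 (1.78), a difference of -1.49. Under median-of-ratios scaling it rose in SUDHL6 too (0.48, adjusted p = 0.0204). SESN2, a stress-induced brake on mTORC1, rose by 2.58 in SUDHL6 and by 1.60 in SUDHL4, a difference of 0.98. Of 15 heat shock genes, 10 rose in each line, and 1 had a higher and 1 a lower response in SUDHL6 (13.3% called). HSPB1, the small heat shock protein HSP27, had 11.1, 16.0 and 16.4 CPM with inhibitor and 8.55, 10.8 and 13.1 CPM with DMSO in SUDHL6. In SUDHL4, HSPB1 had 74.3, 90.1 and 58.9 CPM with inhibitor and 13.8, 13.4 and 17.4 CPM with DMSO, and the difference was -1.85 (adjusted p = 0.000773). HSP90AA1, the inducible HSP90, rose in SUDHL6 by 1.38, with a difference of 1.01 that did not pass under median-of-ratios scaling (0.88).

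The unfolded protein response list had 5 of 19 members with a lower response in SUDHL6 and 0 with a higher one by limma (1 at an unadjusted p under 0.05, and 0 by edgeR and DESeq2). Their median difference was -0.24, and the share called, 26.3%, was near the 24.6% of all shared genes. PDIA4, a disulfide isomerase of the endoplasmic reticulum, had 43.2, 47.5 and 42.6 CPM with inhibitor and 139, 143 and 161 CPM with DMSO in SUDHL6. In SUDHL4, PDIA4 had 121, 126 and 129 CPM with inhibitor and 175, 177 and 164 CPM with DMSO. It fell in both lines and further in SUDHL6, with a difference of -1.26 (adjusted p = 2.91e-05). Under median-of-ratios scaling its fall in SUDHL4 did not pass (-0.14, adjusted p = 0.16). The chaperones HSP90B1 and CALR differed by -0.97 and -0.70, and SEL1L and EDEM1, which work in disposal of misfolded proteins, by -0.95 and -0.89. The count was 2 without SUDHL4 DMSO 1 and 3 without SUDHL4 DMSO 2, SUDHL4 inhibitor 1, SUDHL4 inhibitor 2, SUDHL6 DMSO 1 or SUDHL6 DMSO 3.

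Of the genes in the study's title, BCL6, CBX8 and BCOR fell in SUDHL4 and differed between the lines near the threshold, while EZH2 had no called change or difference. BCL6 had 214, 324 and 227 CPM with inhibitor and 305, 409 and 262 CPM with DMSO in SUDHL6, where the groups overlapped. In SUDHL4, BCL6 had 234, 227 and 238 CPM with inhibitor and 504, 526 and 461 CPM with DMSO, with no overlap. The change was -0.35 in SUDHL6 (adjusted p = 0.0856) and -1.09 in SUDHL4, a difference of 0.74 ± 0.24 (SE; adjusted p = 0.0393). Within replicate numbers of SUDHL6 the inhibitor library was lower each time, at -0.51, -0.34 and -0.20. CBX8, a Polycomb subunit that reads the histone mark, had 7.92, 14.3 and 11 CPM with inhibitor and 12.8, 16.3 and 12.6 CPM with DMSO in SUDHL6. In SUDHL4, CBX8 had 6.31, 5.48 and 5.83 CPM with inhibitor and 15.2, 14.1 and 12.5 CPM with DMSO, a difference of 0.79 ± 0.26 (adjusted p = 0.0413). BCOR, the BCL6 corepressor, had 64.7, 89.9 and 81.7 CPM with inhibitor and 83.6, 79.3 and 64.7 CPM with DMSO in SUDHL6, and again the groups overlapped. In SUDHL4, BCOR had 34.3, 31.5 and 44.4 CPM with inhibitor and 54.1, 63.0 and 52.4 CPM with DMSO, a difference of 0.67 ± 0.22 (adjusted p = 0.0433).

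EZH2, the methyltransferase, had 87.7, 104 and 171 CPM with inhibitor and 113, 126 and 150 CPM with DMSO in SUDHL6. In SUDHL4, EZH2 had 128, 135 and 121 CPM with inhibitor and 107, 103 and 107 CPM with DMSO. Neither change passed the test (-0.15 and 0.27), and the difference was -0.42 (95% interval -1.01 to 0.17, adjusted p = 0.276). The 3 calls were not steady. Leaving out 1 library at a time kept the call in 4 of 12 fits for BCL6, with values between 0.56 and 0.92, and in 3 of 12 each for CBX8 and BCOR. With a block for replicate number within SUDHL6, BCL6 passed at an adjusted p of 0.000262 and EZH2 at 0.028. Without SUDHL6 inhibitor 3, the library at 171 CPM, EZH2 passed at -0.70. Under median-of-ratios scaling the fall of BCOR in SUDHL4 was -0.31 and did not pass (adjusted p = 0.0509), while EZH2 rose in SUDHL4 by 0.58 (adjusted p = 0.016).

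**Figure D3:**
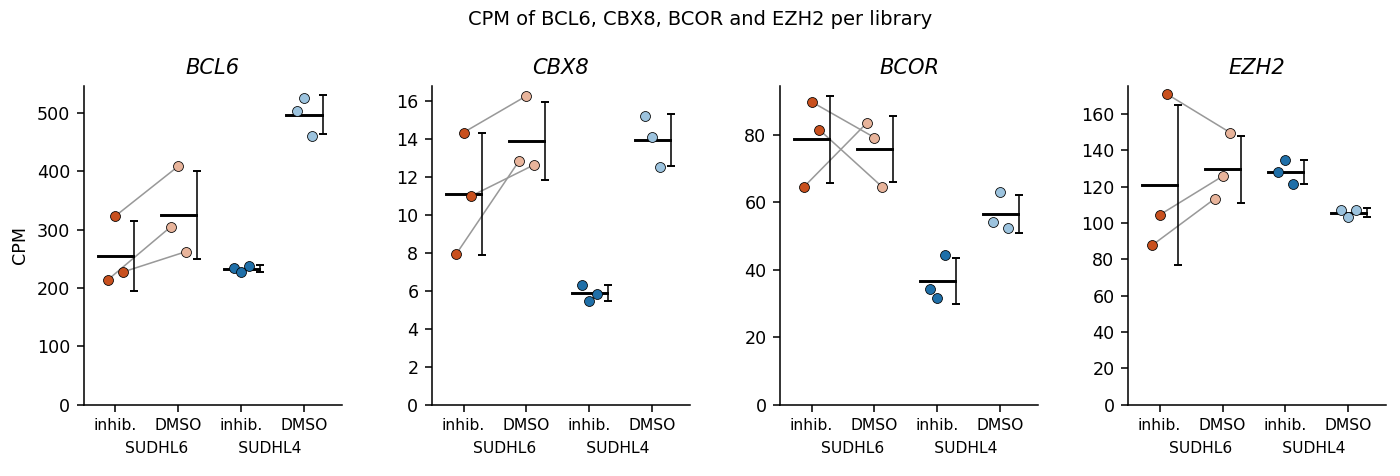
CPM of BCL6, CBX8, BCOR and EZH2 in each library (points; axes start at 0) with the group mean and SD (n = 3; grey lines join the same replicate number in SUDHL6), SUDHL6 left of SUDHL4 and inhibitor left of DMSO. The SUDHL4 inhibitor libraries lie below the SUDHL4 DMSO libraries for BCL6, CBX8 and BCOR, while the SUDHL6 groups overlap for all 4 genes.

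Other Polycomb and corepressor genes were divided. Of 22 genes of Polycomb complex 1 and its BCOR variant, 6 had a higher response in SUDHL6 and 2 a lower one, with a median of 0.27. Median-of-ratios scaling gave 4 and 3. In the main fit 36.4% of these genes were called, against 24.6% of all shared genes. Leaving out SUDHL4 DMSO 1, SUDHL4 DMSO 2 or SUDHL4 inhibitor 1 left 1 higher member, SUDHL4 inhibitor 2 or SUDHL6 DMSO 3 left 2, and SUDHL6 DMSO 1, SUDHL6 DMSO 2 or SUDHL6 inhibitor 3 left 3. PCGF5, a ring-finger subunit of a variant complex and a reported BCL6 target, had 45.2, 41.3 and 43.7 CPM with inhibitor and 19.8, 15.1 and 17.5 CPM with DMSO in SUDHL6. In SUDHL4, PCGF5 had 143, 129 and 152 CPM with inhibitor and 108, 93.7 and 111 CPM with DMSO, a difference of 0.84 (adjusted p = 0.00251). CBX2, another CBX reader, fell by 1.11 in SUDHL6 and fell by 2.38 in SUDHL4. Its difference kept the call in 7 of the 12 fits that left out 1 library. Of 11 genes of Polycomb complex 2, EZH1, the second methyltransferase, was the only one called (9.1%), at -0.92. The block within SUDHL6 gave 2 lower.

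Of 19 BCL6 corepressors and partners, 5 had a higher response in SUDHL6 and 1 a lower one, and median-of-ratios scaling gave 4 and 4. Without SUDHL6 inhibitor 1, 8 were higher, and without SUDHL6 inhibitor 2, 3 were lower. The calls of the main fit make up 31.6% of the list, against 24.6% of all shared genes. TBL1X, a subunit of the NCOR and SMRT complexes, had 215, 181 and 123 CPM with inhibitor and 53.9, 55.8 and 40.2 CPM with DMSO in SUDHL6. In SUDHL4, TBL1X had 73.7, 64.8 and 87.8 CPM with inhibitor and 71.8, 78.9 and 72.2 CPM with DMSO, and only the SUDHL6 groups were apart. The difference was 1.73 (adjusted p = 0.000837). HDAC5, a class IIa deacetylase, rose in SUDHL6 by 1.19, with a difference of 1.60. GPS2, another subunit of the same complexes, differed by 0.68, and HDAC3, their deacetylase, by -0.73. The 23 shared BCL6 targets of the list held 3 with a higher response, MYC, SUB1 and PCGF5, and 0 with a lower one by limma (0 at an unadjusted p under 0.05, 0 by edgeR and 1 by DESeq2). Median-of-ratios scaling gave 2 higher and 1 lower. The share of called targets, 13.0%, was below the 24.6% of all shared genes, and SUB1 lost its call under 15 of 24 alternatives.

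Of 26 antigen presentation genes, 7 had a lower response in SUDHL6, 6 of them in the class II pathway, and 0 had a higher one by limma (2 at an unadjusted p under 0.05, and 0 by edgeR and DESeq2). Median-of-ratios scaling gave 8 and 0, leaving out SUDHL6 DMSO 3 or SUDHL6 inhibitor 1 gave 3 higher ones, and leaving out the SUDHL4 DMSO 3 library and both SUDHL6 replicate 3 libraries gave 7 and 3. The median of the list was -0.15, since most members did not differ by the test. The list had 26.9% of its members called, near the 24.6% of all shared genes, where 16.8% were higher and 7.87% lower. HLA-DOB, which tunes peptide loading in B cells, had 8.95, 19.5 and 8.21 CPM with inhibitor and 108, 119 and 70.8 CPM with DMSO in SUDHL6. In SUDHL4, HLA-DOB had 42.6, 38.4 and 50.7 CPM with inhibitor and 90.1, 94.5 and 84.7 CPM with DMSO, a difference of -1.96 (adjusted p = 0.00314). HLA-DMA and HLA-DMB, the chains of the loading factor HLA-DM, differed by -1.17 and -0.96. HLA-DMB fell in both lines, to 48.2, 58.5 and 50.4 CPM in SUDHL6 with inhibitor against 300, 254 and 359 CPM with DMSO, and to 48.9, 60.7 and 44.8 CPM in SUDHL4 with inhibitor against 157, 157 and 138 CPM with DMSO. The peptide-presenting chains HLA-DPA1 and HLA-DPB1 differed by -0.66 and -0.41. Other class II genes did not differ by the test. HLA-DRA, HLA-DRB1 and HLA-DQB1 had no called change in either line, and HLA-DQA1 and CIITA, the class II transactivator, had differences of 0.51 and 0.29. HLA-DRB1 rose in SUDHL4 under median-of-ratios scaling (0.65, adjusted p = 0.0156). CD74, the invariant chain, had 1294, 1540 and 1582 CPM with inhibitor and 1930, 2326 and 2309 CPM with DMSO in SUDHL6. In SUDHL4, CD74 had 3941, 4361 and 4083 CPM with inhibitor and 4111, 4224 and 4111 CPM with DMSO, and the difference was -0.56 (adjusted p = 0.0276). ERAP2, which trims peptides for class I molecules, was outside that list and among the largest differences. It had 9.94, 12.3 and 11.6 CPM with inhibitor and 39.6, 41.1 and 34.4 CPM with DMSO in SUDHL6. In SUDHL4, ERAP2 had 29.7, 29.0 and 29.2 CPM with inhibitor and 19.4, 18.9 and 21.1 CPM with DMSO, so it fell in SUDHL6 and rose in SUDHL4 (difference -2.22, adjusted p = 8.32e-06).

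B cell receptor genes fell in both lines, with members that differed each way. Of 30 shared members, 23 fell in SUDHL6 and 19 in SUDHL4, and 4 had a lower and 2 a higher response in SUDHL6. That share of called members is below the 24.6% over all shared genes. The block within SUDHL6 gave 11 lower and 3 higher, leaving out SUDHL6 inhibitor 2 gave 11 lower, and leaving out SUDHL6 inhibitor 1 gave 5 higher. CD37, a tetraspanin of B cells, had 140, 169 and 160 CPM with inhibitor and 370, 432 and 282 CPM with DMSO in SUDHL6. In SUDHL4, CD37 had 368, 420 and 380 CPM with inhibitor and 282, 302 and 291 CPM with DMSO, a difference of -1.60 (adjusted p = 0.000166). VAV2, an exchange factor that acts near the receptor, had 60.8, 64.2 and 69.2 CPM with inhibitor and 161, 165 and 215 CPM with DMSO in SUDHL6. In SUDHL4, VAV2 had 73.5, 78.8 and 79.6 CPM with inhibitor and 127, 127 and 110.1 CPM with DMSO. It fell in both lines with no overlap, and the difference was -0.81 (adjusted p = 0.00324). RASGRP3, an exchange factor for RAS, differed by -1.01. PRKCB, the protein kinase C of B cells, and PLCG2, the phospholipase ahead of it, differed by 1.07 and 0.70.

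Of 24 germinal centre B cell genes, 5 had a lower and 2 a higher response in SUDHL6, and the block within SUDHL6 gave 8 and 7. Without SUDHL6 inhibitor 1, 5 were higher. The main fit called 29.2% of the list, against 24.6% of all shared genes. CXCR5, the chemokine receptor that guides B cells into follicles, had 14.4, 25.0 and 42.5 CPM with inhibitor and 72.9, 95.5 and 134 CPM with DMSO in SUDHL6. In SUDHL4, CXCR5 had 85.0, 84.0 and 96.7 CPM with inhibitor and 91.5, 95.2 and 85.3 CPM with DMSO, and only the SUDHL6 groups were apart (difference -1.90, adjusted p = 0.00701). SWAP70, a B cell switching protein, and IRF8, a transcription factor of germinal centre cells, fell in SUDHL6 (-0.41 and -0.34) and rose in SUDHL4 (0.69 and 0.55). Their falls in SUDHL6 did not pass under median-of-ratios scaling (-0.22 and -0.15, adjusted p = 0.0718 and 0.336). POU2AF1, a coactivator of octamer factors, fell by 1.67 in SUDHL6 and fell by 0.90 in SUDHL4. Its difference kept the call in 6 of the 12 fits that left out 1 library. LRMP (now IRAG2) had a difference of 1.03. Of the 12 B cell markers, MS4A1, CD37 and POU2AF1 were lower in SUDHL6 and 0 were higher by limma, at an unadjusted p under 0.05, by edgeR and by DESeq2. These 3 were 25.0% of the markers, near the 24.6% of all shared genes. Leaving out 1 library gave 1 to 6 lower ones, with 6 without SUDHL6 inhibitor 2 and 1 without SUDHL4 DMSO 1, SUDHL4 DMSO 3, SUDHL4 inhibitor 1, SUDHL4 inhibitor 3 or SUDHL6 DMSO 2. Without SUDHL6 inhibitor 1, 3 were higher, and the block within SUDHL6 gave 6 lower and 0 higher. The summed marker levels moved with the groups as given above, and their part in these results was not tested.

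DNA replication genes fell in both lines, 38 of 40 in SUDHL6 and 39 of 40 in SUDHL4, and 5 differed upward (3 without SUDHL4 DMSO 2) and 1 downward. The share of called members, 15.0%, was below the 24.6% of all shared genes. PCNA, the sliding clamp, had 59.6, 76.9 and 156 CPM with inhibitor and 145, 168 and 223 CPM with DMSO in SUDHL6. In SUDHL4, PCNA had 21.9, 23.7 and 19.9 CPM with inhibitor and 162, 158 and 142 CPM with DMSO, a difference of 1.79 (adjusted p = 0.00544). The helicase subunits MCM6 and MCM3 differed by 1.47 and 1.26, the clamp-loader subunit RFC5 by 0.94 (0.84 and not called under median-of-ratios scaling) and the origin subunit ORC6 by 0.88. POLE, the leading-strand polymerase, differed by -0.63. Mitosis genes fell in 34 of 36 in SUDHL6 and 26 of 36 in SUDHL4, and 0 differed by limma (1 higher at an unadjusted p under 0.05, and 0 by edgeR and DESeq2).

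The SUDHL6 inhibitor libraries were far apart in these genes, with library 1 the lowest in RRM2, PCNA, MCM3 and MCM6. RRM2, the ribonucleotide reductase subunit of S phase, had 24.6, 57.3 and 132 CPM with inhibitor and 177, 224 and 302 CPM with DMSO in SUDHL6. In SUDHL4, RRM2 had 9.33, 10.8 and 8.61 CPM with inhibitor and 104, 102 and 89.4 CPM with DMSO, and its difference of 1.26 did not pass the test (adjusted p = 0.148). Leaving out SUDHL6 inhibitor 1 raised the count of replication genes with a higher response to 22 and that of mitosis genes to 18. The block within SUDHL6 gave 16 replication genes and 1 mitosis gene. CDKN2C, an inhibitor of CDK4 and CDK6, had 25.7, 52.4 and 48.6 CPM with inhibitor and 54.8, 67.8 and 49.2 CPM with DMSO in SUDHL6. In SUDHL4, CDKN2C had 143, 161 and 119 CPM with inhibitor and 48.8, 47.3 and 59.3 CPM with DMSO, a difference of -1.91 (adjusted p = 0.0015).

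**Figure D4:**
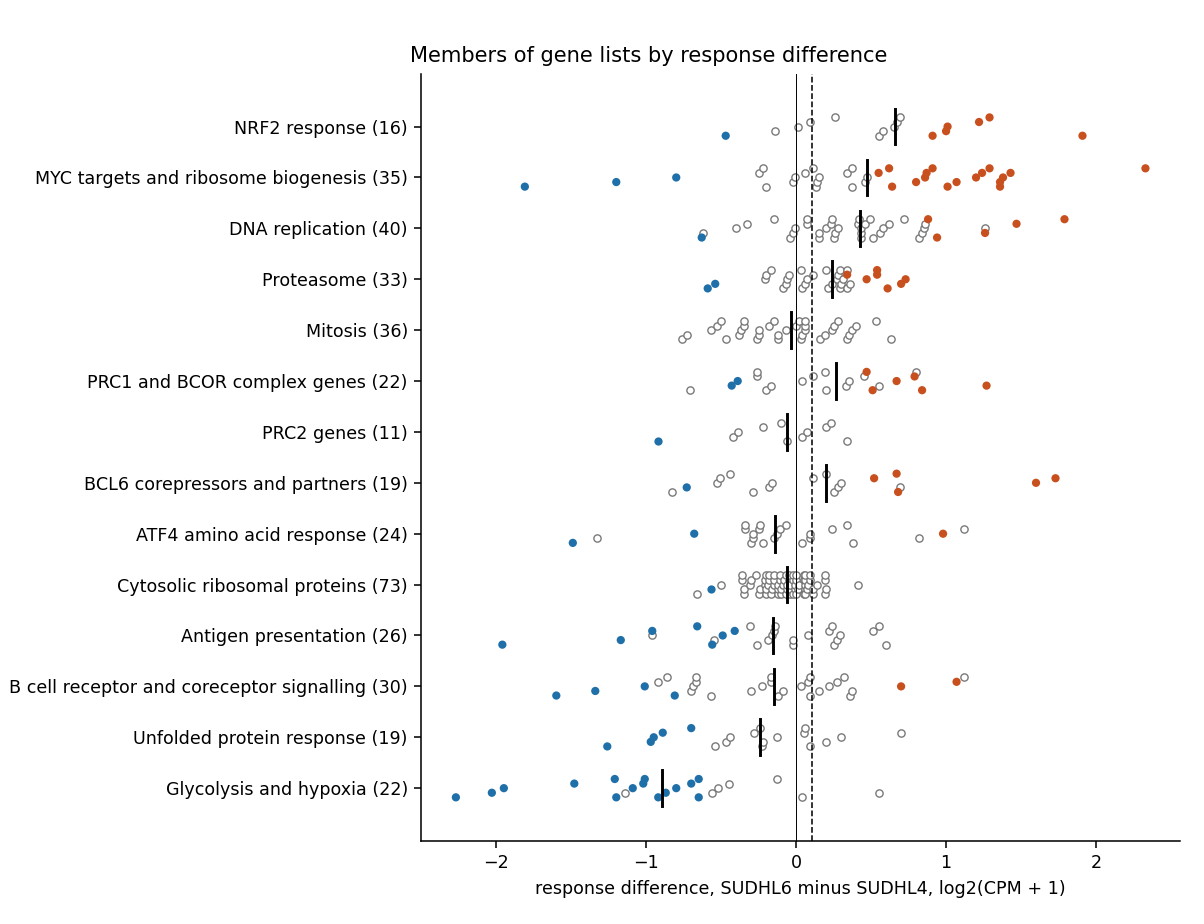
Response difference (SUDHL6 minus SUDHL4, log2(CPM + 1)) of each shared member of 14 gene lists, with the number of members in brackets. Filled orange points have a called higher response in SUDHL6, filled blue points a called lower one and open points no call. The thick bar is the list's median and the dashed line the median of all shared genes (0.10). The NRF2 and MYC lists have medians of 0.66 (0.40 without SUDHL4 DMSO 3) and 0.47, the glycolysis and hypoxia list -0.89, and cytosolic ribosomal protein genes lie close together around -0.06.

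Cytosolic ribosomal protein genes hardly took part: of 73, 3 rose and 2 fell in SUDHL6, and 2 rose and 2 fell in SUDHL4. RPL17 was the only one with a called difference (-0.57), 1.4% of the list. The block within SUDHL6 gave 10 lower and 1 higher. Under median-of-ratios scaling 5 rose and 1 fell in SUDHL6, while 20 rose and 0 fell in SUDHL4. Of 33 proteasome genes, 7 had a higher and 2 a lower response in SUDHL6, 27.3% called and so near the 24.6% of all shared genes. The block within SUDHL6 gave 12 and 2, and leaving out SUDHL6 inhibitor 2 gave 11 higher. The base subunits PSMD1 and PSMC2 differed by 0.73 and 0.70. The lower members were PSME1 and PSME4, which are activators outside the core, at -0.59 and -0.54. Oxidative phosphorylation genes fell in 38 of 52 members in SUDHL6 and in 42 of 52 in SUDHL4, and 7 had a higher and 2 a lower response in SUDHL6. The split was 4 and 6 under median-of-ratios scaling. With that scaling 30 fell and 4 rose in SUDHL6, and 28 fell and 5 rose in SUDHL4. The share called in the main fit, 17.3%, was below the 24.6% of all shared genes.

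Cholesterol and fatty acid synthesis genes were mixed, with 4 of 32 higher and 6 lower in SUDHL6, and 1 and 8 under median-of-ratios scaling. The higher count was 1 or 2 in 8 of the 12 fits that left out 1 library. In the main fit 31.2% of members were called, against 24.6% of all shared genes. STARD4, a cholesterol carrier, had 30.5, 34.7 and 35.4 CPM with inhibitor and 29.9, 34.3 and 35.6 CPM with DMSO in SUDHL6. In SUDHL4, STARD4 had 66.4, 62.3 and 62.8 CPM with inhibitor and 19.8, 18.8 and 25.4 CPM with DMSO, so SUDHL6 showed overlapping groups and SUDHL4 a rise (difference -1.54, adjusted p = 0.00011). DHCR7, the last enzyme of cholesterol synthesis, and SCD, the stearoyl-CoA desaturase, differed by -1.39 and -1.20. ACLY, which makes cytosolic acetyl-CoA, differed by 0.69. No gene of the BCL2 family, which sets the threshold for apoptosis, had a called difference by limma among 12 shared members (0 at an unadjusted p under 0.05, 0 by edgeR and 1 by DESeq2). The block within SUDHL6 gave 3 higher and 1 lower. PMAIP1, the BH3-only gene NOXA, rose by 2.64 in SUDHL6 and by 2.35 in SUDHL4.

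Of 20 p53 response genes, 4 were higher and 2 lower in SUDHL6, or 30.0% called against 24.6% of shared genes. AEN, an apoptosis-enhancing nuclease, fell by 1.44 in SUDHL6 and fell by 2.91 in SUDHL4, and CCNG1, cyclin G1, differed by -0.85. Of 12 immediate early genes, 3 were higher and 2 lower (41.7% called). NR4A1, an orphan nuclear receptor that antigen receptor signals induce, and IER2 rose in SUDHL6 by 1.18 and 0.83, with differences of 1.40 and 1.36. IER5 rose in both lines, by 1.24 in SUDHL6 and by 2.61 in SUDHL4. Among 14 FOXO targets and mTOR brakes, 3 were higher and 0 lower by limma (1 lower at an unadjusted p under 0.05, 0 by edgeR, 2 by DESeq2 and 3 without SUDHL6 DMSO 3). In the main fit 21.4% of them were called. TXNIP, a thioredoxin-binding arrestin, fell by 0.66 in SUDHL6 and fell by 2.05 in SUDHL4 (in SUDHL6 -0.47, adjusted p = 0.0825, under median-of-ratios scaling), and TSC22D3, a glucocorticoid-induced leucine zipper gene, rose by 2.96 in SUDHL6 and by 1.67 in SUDHL4. Of 15 NF-kB and CD40 response genes, RELA was higher and ICAM1 lower (13.3% called). The block within SUDHL6 gave 3 higher and 5 lower, and under median-of-ratios scaling RELA did not pass (0.28, adjusted p = 0.0577). Of 26 autophagy and lysosome genes, LAMP1, a lysosomal membrane protein, was the only call (3.8%), at -1.18. The block within SUDHL6 gave 3 higher and 1 lower.

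Smaller lists gave 1 or a few calls each, beside 24.6% called over all shared genes. The share called was 14.3% of cell cycle inhibitors and G1 regulators and 13.3% of migration receptors and RGS genes. It was 7.7% of SLAM family and costimulatory genes, 11.1% of plasma cell and memory genes and 9.1% of interferon response genes. Homeobox genes had 25.0% called and histone genes 28.6%. Of 21 cell cycle inhibitors and G1 regulators, CDK4, the G1 kinase, and E2F4, a repressing E2F factor, were higher, at 0.47 and 0.68, and CDKN2C was lower. CDK4 did not pass under median-of-ratios scaling (0.35, adjusted p = 0.0962), and 5 were higher without SUDHL6 inhibitor 1. Of 15 migration receptors and RGS genes, RGS16, a brake on chemokine signalling, was higher, at 1.16, and CXCR5 lower. Of 13 SLAM family and costimulatory genes, CD48 was lower, at -0.62, and the block gave 1 higher and 4 lower. Of 9 plasma cell and memory genes, FKBP11, a folding enzyme of secretory cells, was lower, at -0.58. Its call held in 4 of the 12 fits that left out 1 library. STAT2, a mediator of type I interferon signals, was the only call among 11 interferon response genes, at -0.54, and the block within SUDHL6 gave 1 higher and 3 lower. Of 8 shared homeobox genes, HOXC4 was higher, at 1.04, and POU2F1, the octamer factor OCT1, lower, at -1.41. Of 7 histone genes, H3F3B, which encodes the replacement histone H3.3, was higher, at 1.04, and H2AFY (now MACROH2A1), which encodes macroH2A1, was lower, at -0.87.

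The largest positive difference belonged to C18orf1 (now LDLRAD4), a membrane protein that restrains TGF-beta signalling. It had 62.0, 55 and 14.5 CPM with inhibitor and 12.4, 11.4 and 3.86 CPM with DMSO in SUDHL6, with replicate 3 low in both groups. In SUDHL4, C18orf1 had 15.6, 13.6 and 19.9 CPM with inhibitor and 39.2, 38.5 and 37.0 CPM with DMSO. The difference was 3.22 ± 0.68 (SE; adjusted p = 0.00487). LITAF, an endosomal membrane protein, had 131, 81.7 and 108 CPM with inhibitor and 22.1, 14.6 and 18.1 CPM with DMSO in SUDHL6. In SUDHL4, LITAF had 56.8, 67.0 and 61.2 CPM with inhibitor and 45.8, 49.7 and 51.0 CPM with DMSO, and the change there did not pass the test, though it did under median-of-ratios scaling (0.64, adjusted p = 0.0104; difference 2.15, adjusted p = 0.000116). Most of the other large positive differences were falls in SUDHL4. HVCN1, the voltage-gated proton channel of B cells, had 15.2, 13.9 and 18.5 CPM in SUDHL4 with inhibitor and 74.5, 74.1 and 61.7 CPM with DMSO, and its SUDHL6 groups overlapped (difference 2.25). DBR1, which opens intron lariats, fell in both lines, with changes of -1.07 in SUDHL6 and -3.29 in SUDHL4. MKL2 (now MRTFB), a coactivator of serum response factor, fell by 0.59 in SUDHL6 and fell by 2.78 in SUDHL4. ZMIZ1, a transcriptional coactivator of the PIAS-like family, had 41.2, 41.8 and 51.1 CPM in SUDHL4 with inhibitor and 217, 236 and 179 CPM with DMSO, while SUDHL6 stayed between 10.4 and 18.6 CPM in all 6 libraries (difference 2.14). MAB21L1, FAM167A and ZMYND19 completed the set, at 2.48, 2.12 and 2.07.

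The largest negative difference belonged to NR1D2, a circadian nuclear receptor that represses transcription. It had 14.3, 13 and 7.49 CPM with inhibitor and 19.95, 13.7 and 9.42 CPM with DMSO in SUDHL6, where the groups overlapped. In SUDHL4, NR1D2 had 127, 126 and 122 CPM with inhibitor and 16.1, 14.4 and 33.6 CPM with DMSO, a difference of -2.86 (adjusted p = 0.00101). Several others fell in SUDHL6, and in SUDHL4 fell less, rose or had no called change. FAM129C (now NIBAN3), a B cell protein, had 15.6, 21.4 and 21.3 CPM with inhibitor and 91.9, 156 and 181 CPM with DMSO in SUDHL6, against 20.4, 21.0 and 20.4 CPM with inhibitor and 28.4, 26.9 and 24 CPM with DMSO in SUDHL4 (difference -2.43). D4S234E (now NSG1), an endosomal protein, fell by 2.13 in SUDHL6 and did not pass the test in SUDHL4 (-0.09). WNT10A, a secreted WNT ligand, fell by 3.68 in SUDHL6 and fell by 1.67 in SUDHL4, and PAQR8, a membrane progesterone receptor, fell by 2.76 in SUDHL6 and fell by 0.79 in SUDHL4. The fall of PAQR8 in SUDHL4 did not pass under median-of-ratios scaling (-0.48, adjusted p = 0.0862). CEACAM1, an inhibitory adhesion receptor, had a difference of -2.07. PPP1R3E, which targets a phosphatase to glycogen, fell by 0.54 in SUDHL6 and rose by 1.42 in SUDHL4, and the fall did not pass under median-of-ratios scaling (-0.36, adjusted p = 0.0908).

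Which genes were called in opposite directions depended on the scaling. Of the 154, 106 rose in SUDHL6 and fell in SUDHL4, and 48 fell in SUDHL6 and rose in SUDHL4. Median-of-ratios scaling gave 91 and 88, and 51 of the 154 were opposite in both scalings, 24 rising and 27 falling in SUDHL6. The difference itself stayed called in 151 of the 154. A pair of genes that fell in SUDHL6 stood out in size. PVRL1 (now NECTIN1), a cell adhesion molecule, had 20.1, 13 and 15.3 CPM with inhibitor and 33.3, 45.5 and 23.0 CPM with DMSO in SUDHL6. In SUDHL4, PVRL1 had 45.5, 47.6 and 46.4 CPM with inhibitor and 9.96, 11.7 and 17.1 CPM with DMSO, a difference of -2.80 (adjusted p = 0.000188). PFKFB4, which sets the level of fructose 2,6-bisphosphate and so the rate of glycolysis, had 2.45, 4.0 and 4.83 CPM with inhibitor and 7.97, 9.55 and 17.3 CPM with DMSO in SUDHL6. In SUDHL4, PFKFB4 had 12.8, 12.0 and 15.7 CPM with inhibitor and 4.63, 4.34 and 6.33 CPM with DMSO, a difference of -2.62 (adjusted p = 0.000522). In both genes the inhibitor and DMSO libraries were apart in each line, and in opposite order.

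RUNX3, a transcription factor of lymphocytes, had 41.2, 65.8 and 74.2 CPM with inhibitor and 83.5, 91.1 and 117 CPM with DMSO in SUDHL6. In SUDHL4, RUNX3 had 145, 160 and 142 CPM with inhibitor and 80.6, 82.9 and 80.1 CPM with DMSO, a difference of -1.57 (adjusted p = 0.00126). ICAM1, an adhesion molecule that NF-kB induces, SLC39A8, a zinc and manganese importer, and SLC6A16, an orphan transporter, had differences of -1.55, -1.58 and -1.63. All 6 genes named here that fell in SUDHL6 kept both calls under median-of-ratios scaling. Of the 6 named that rose in SUDHL6, only SETBP1 and SOCS5 did. SETBP1, which binds the oncoprotein SET, had 79.7, 80.7 and 48.9 CPM with inhibitor and 42.2, 40.4 and 43.6 CPM with DMSO in SUDHL6, against 7.78, 7.62 and 9.21 CPM with inhibitor and 14.8, 15.8 and 14.2 CPM with DMSO in SUDHL4 (difference 1.48). SOCS5, a suppressor of cytokine signalling, had a difference of 1.30. For C18orf1, SH3TC1, MOSPD1 and REPIN1, the fall in SUDHL4 did not pass under that scaling, at -0.89, -0.56, -0.42 and -0.39, with adjusted p-values of 0.113, 0.0962, 0.1 and 0.195.

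**Figure D5:**
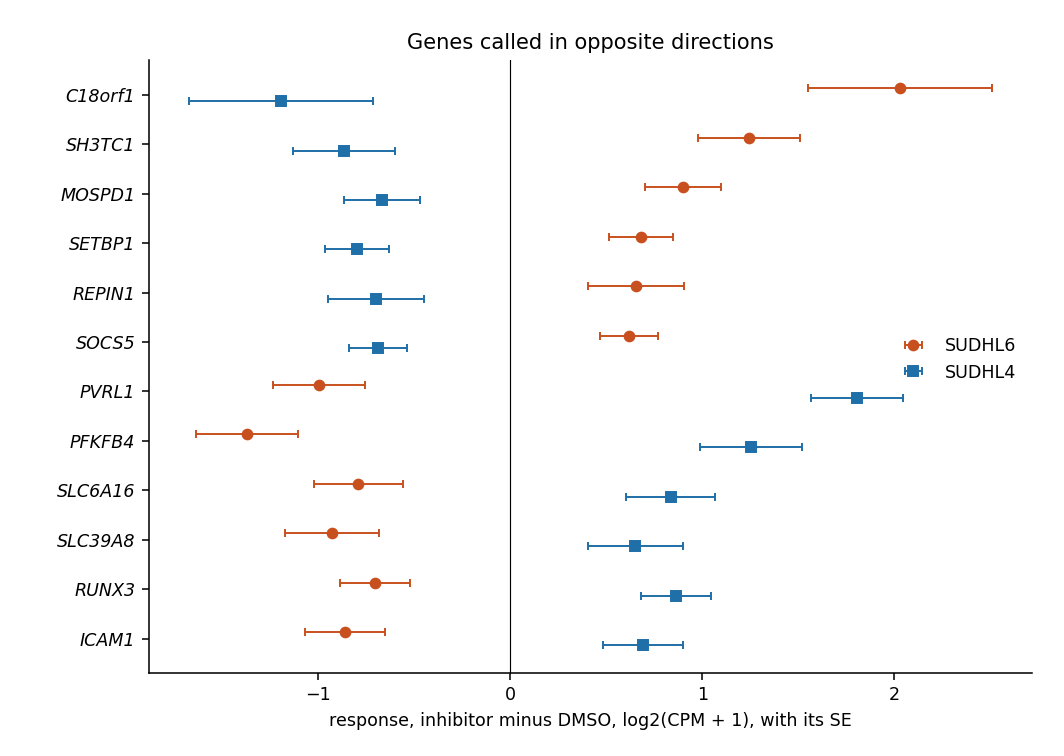
Response (inhibitor minus DMSO, log2(CPM + 1)) with its SE (n = 3 per group) in SUDHL6 (circles) and SUDHL4 (squares) for 12 genes called in opposite directions. C18orf1 has the widest spread, and PVRL1 and PFKFB4 are furthest apart among the 6 genes that fell in SUDHL6. Of the upper 6 genes, SETBP1 and SOCS5 kept both calls under median-of-ratios scaling, and the lower 6 all did.

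A matched response could be read where both lines changed at least 2-fold in the same direction and the 95% interval of the difference lay within -0.5 to 0.5. This held for 150 shared genes, 66 rising and 84 falling. PPP1R15B, the constitutive regulator of the eIF2-alpha phosphatase, had 501, 386.5 and 381 CPM with inhibitor and 128, 129 and 111 CPM with DMSO in SUDHL6. In SUDHL4, PPP1R15B had 379, 384 and 338 CPM with inhibitor and 104, 99.3 and 136 CPM with DMSO. It rose by 1.77 in SUDHL6 and by 1.70 in SUDHL4 (interval of the difference -0.35 to 0.49). IP6K1, an inositol hexakisphosphate kinase, and RC3H1, which promotes decay of immune mRNAs, rose by 1.72 and 1.60 in SUDHL6 and by 1.61 and 1.64 in SUDHL4. ZXDB and TRIM23 rose by 1.51 and 1.52 in SUDHL6 and by 1.54 and 1.5 in SUDHL4.

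ATIC, which completes purine synthesis, had 51.9, 66.4 and 66.9 CPM with inhibitor and 215, 220 and 223 CPM with DMSO in SUDHL6. In SUDHL4, ATIC had 40.0, 41.3 and 39.2 CPM with inhibitor and 166, 171 and 151 CPM with DMSO. The changes of -1.82 in SUDHL6 and -1.99 in SUDHL4 differed by 0.17 (95% interval -0.14 to 0.48). PCCB, a subunit of propionyl-CoA carboxylase, fell by 2.08 in SUDHL6 and fell by 2.09 in SUDHL4, with an interval of the difference from -0.30 to 0.33. EXOSC5, a subunit of the RNA exosome, MAGED1, RPGRIP1L, a ciliary protein, and TMCO6 changed by -2.17, -2.06, -2.35 and -1.98 in SUDHL6 and by -2.25, -2.11, -2.34 and -2.03 in SUDHL4.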

How the data were processed

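RNA was sequenced from 3 lymphoma cell lines given DMSO or 79-6.1085 for 12 h, 3 libraries per group, and the 12 libraries of SUDHL6 and SUDHL4 enter the comparison. The authors deposited 1 table per library with a CPM value for each RefSeq gene. STAR and the hg19 build are named in the submitters' processing notes, and Rsubread is named in the labels, with versions, strand setting and annotation release not given in the sources used here. The kit was a TruSeq RNA kit, per the labels' protocols. The deposited CPM values were whole multiples of what 1 read is worth (100% within 0.01 reads), which gave back whole read counts, and the listed genes hold 74.63 to 80.72% of the reads the authors divided by. Since the values are CPM, the test is limma 3.58.1 in R 4.3.3 on log2(CPM + 1), with an intensity trend, 4 group means and 8 residual degrees of freedom, for the 12041 genes with at least 1 CPM in at least 3 of the 12 libraries. The added 1 pulls the changes of low genes toward 0.

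The alternatives were edgeR 4.0.16 and DESeq2 1.42.0 on the recovered reads, median-of-ratios scaling, other filters and an added value of 0.25, a 1.5-fold minimum, array weights, all 18 libraries in the fit, a replicate block and leaving out each library. Same-numbered inhibitor and DMSO libraries deviated together in SUDHL6 (correlations of 0.434, 0.493 and 0.639) and not in SUDHL4 (-0.05, 0.032 and -0.074). The labels do not say that the numbers pair samples. The highest value, 0.639, belongs to the SUDHL6 replicate 3 libraries, which have the lowest read totals. Why the libraries deviated together was not tested. A block in SUDHL6 alone, and a fit without both SUDHL6 replicate 3 libraries and SUDHL4 DMSO 3, were added after seeing the data. No pair of replicates agreed within sampling noise.

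The shared genes, the lists and the tests were chosen with earlier results of these data known. The genes named are BCL6, EZH2, CBX8 and BCOR; the 12 largest differences in each direction that held in every fit leaving out 1 library; 6 genes per direction called in opposite directions and 6 per direction with a matched response; and up to 4 called members of each list, smallest p first. Further list members are given with the count of their list and were chosen after their values were seen. Counts without strand cannot separate a gene from an overlapping one. The steps were tested on simulated data drawn with the same spread setting in every group and no pairing of replicates. The groups here differ in spread, so that test does not give error rates for these libraries. Some genes that this rule names are not reported here.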

Additional observations from a re-analysis of the deposited data

Results flagged for a closer look

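Every gene listed here had a response difference between the lines by limma's test of the difference itself (adjusted p under 0.05), given in brackets as SUDHL6 minus SUDHL4 on the log2(CPM + 1) scale. A positive value is a higher response in SUDHL6. The study genes were BCL6 (0.74), CBX8 (0.79) and BCOR (0.67). The largest positive values belonged to C18orf1 (3.22), MAB21L1 (2.48), MYC (2.33), HVCN1 (2.25), DBR1 (2.22), MKL2 (2.20), LITAF (2.15), MIR17HG (2.14), ZMIZ1 (2.14), FAM167A (2.12), SH3TC1 (2.11) and ZMYND19 (2.07). The largest negative values belonged to NR1D2 (-2.86), PVRL1 (-2.80), PFKFB4 (-2.62), FAM129C (-2.43), ALDOC (-2.27), ERAP2 (-2.22), CEACAM1 (-2.07), D4S234E (-2.04), BNIP3 (-2.03), WNT10A (-2.01), PAQR8 (-1.97) and PPP1R3E (-1.96). Among genes called in opposite directions were SETBP1 (1.48), MOSPD1 (1.57), REPIN1 (1.35), SOCS5 (1.30), SLC6A16 (-1.63), RUNX3 (-1.57), ICAM1 (-1.55) and SLC39A8 (-1.58). Stress genes were HSPB1 (-1.85), HSP90AA1 (1.01), AARS (-1.49), SESN2 (0.98), SLC7A5 (-0.68), GSR (1.29), TXN (1.91), PRDX1 (1.01), PDIA4 (-1.26), EDEM1 (-0.89), SEL1L (-0.95), CALR (-0.70) and LAMP1 (-1.18).

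Glycolytic and signal-induced genes were ALDOA (-0.87), PFKP (-1.09), NR4A1 (1.40), IER2 (1.36), KLF10 (-0.99) and RELA (0.41). B cell genes were CD37 (-1.60), VAV2 (-0.81), PRKCB (1.07), SWAP70 (-1.10), LRMP (1.03), IRF8 (-0.89), CXCR5 (-1.90), FKBP11 (-0.58), POU2AF1 (-0.77), MS4A1 (-0.58), CD48 (-0.62) and RGS16 (1.16). Antigen presentation and interferon genes were HLA-DMA (-1.17), HLA-DPA1 (-0.66), HLA-DOB (-1.96), HLA-DMB (-0.96) and STAT2 (-0.54). Chromatin and corepressor genes were PCGF5 (0.84), SUB1 (0.65), EZH1 (-0.92), PCGF3 (-0.43), USP7 (-0.39), CBX2 (1.27), TBL1X (1.73), HDAC3 (-0.73), GPS2 (0.68), HDAC5 (1.60), POU2F1 (-1.41), HOXC4 (1.04), H2AFY (-0.87) and H3F3B (1.04). Growth and replication genes were NOP2 (1.30), POLR1A (1.36), POLR1B (1.43), PCNA (1.79), MCM6 (1.47), ORC6 (0.88), MCM3 (1.26), CTPS (1.64), GART (0.82), PFAS (0.79), IMPDH2 (-0.51), CDKN2C (-1.91), E2F4 (0.68), CDK4 (0.47), AEN (1.48), CCNG1 (-0.85), POLH (-0.86), TXNIP (1.40) and TSC22D3 (1.28). Mitochondrial, ribosomal, lipid and proteasome genes were COX7B (0.62), ATP5C1 (0.52), NDUFA1 (0.46), ATP5J (0.51), RPL17 (-0.57), STARD4 (-1.54), DHCR7 (-1.39), ACLY (0.69), ACACA (-0.81), PSMD1 (0.73), PSMA7 (0.54), PSMD4 (0.61) and PSMB1 (0.47). The cause of these differences was not tested.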

How the results depend on the processing

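No difference named changed sign under any alternative where it was called. The count of genes with a lower response in SUDHL6, 687, was 1188 by DESeq2 and 1059 under median-of-ratios scaling, and 431 to 888 when 1 library was left out, with 431 without SUDHL4 DMSO 1, 454 without SUDHL4 inhibitor 1 and 455 without SUDHL4 DMSO 2. The higher count, 1463, was 987 to 2105 when 1 library was left out. With the replicate block in both lines the counts were 1881 higher and 1008 lower, and with the block in SUDHL6 alone 2276 higher and 1206 lower. DESeq2 gave 3203 genes that rose in SUDHL4 and 3111 that rose in SUDHL6, and a 1.5-fold minimum gave 1385 in SUDHL4 and 1468 in SUDHL6. The medians of the responses were -0.025 in SUDHL4 and -0.011 in SUDHL6 by DESeq2, -0.017 and -0.007 by edgeR, and -0.026 and -0.018 under median-of-ratios scaling.

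Genes in opposite directions that fell in SUDHL6, 48, numbered 101 by DESeq2, 91 by edgeR, 88 under median-of-ratios scaling, 74 with all 18 libraries, 10 at a 1.5-fold minimum and 79 without both SUDHL6 replicate 3 libraries, and 93 and 102 with the replicate block in both lines and in SUDHL6. Those that rose in SUDHL6, 106, numbered 160 with all 18 libraries, 7 at a 1.5-fold minimum, 166 with the block in SUDHL6 and 64 to 132 when 1 library was left out, with 64 without SUDHL4 inhibitor 1 and 65 without SUDHL4 DMSO 1. BCL6 no longer passed by edgeR (0.61), with no filter (0.74), without both SUDHL6 replicate 3 libraries (0.67) or without these and SUDHL4 DMSO 3 (0.72), and left-out libraries gave 0.56 to 0.92. BCOR no longer passed with array weights (0.67), by edgeR (0.54), with no filter (0.67) or in those 2 reduced fits (0.52 and 0.58), and left-out libraries gave 0.56 to 0.81. CBX8 no longer passed with no filter (0.79) or in the reduced fits (0.72 and 0.79), and left-out libraries gave 0.60 to 0.99. EZH2 passed with the replicate block in SUDHL6 (-0.42) and in the reduced fits (-0.59 and -0.60), and left-out libraries gave -0.70 to -0.22. The cause was not tested.

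Of the other 128 named genes, 14 lost the call under 1 or more alternatives, most often SUB1 (15 of 24) and MS4A1 (11 of 24). CDK4 lost it in 9 of 24, FKBP11 and POU2AF1 in 8 each, and CBX2 and RELA in 7 each. RC3H1 and TRIM23, called matched, moved to -0.27 and -0.24 in the smaller reduced fit. The block changed no other call among them. By edgeR 1 matched gene moved by at least the standard error of its difference, and by DESeq2 1 did. The difference of PCCB, also called matched, ranged from -0.15 to 0.10 over the alternatives. The depth of the SUDHL6 replicate 3 libraries, where 3 reads equal 0.321 CPM with DMSO and 0.362 CPM with inhibitor, limits low genes there, and these figures cover counting error only.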

Other observations

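Farage, the third line of the series, took no part in choosing the genes or in the test of the difference, and its response is given as a description. Of the 1302 genes whose difference held in every fit leaving out 1 library and that had at least 5 CPM in Farage with DMSO, 673 had a Farage response nearer to that of SUDHL6 and 629 one nearer to that of SUDHL4. The lists did not take the same side. In glycolysis and hypoxia genes the median response was 0.78 in Farage, against -0.28 in SUDHL6 and 0.51 in SUDHL4. In NRF2 genes it was 1.67 in Farage, against 1.91 in SUDHL6 and 1.12 in SUDHL4. In antigen presentation genes expressed in all 3 lines (22 members) it was -1.02 in Farage, against -0.98 in SUDHL6 and -0.14 in SUDHL4. In MYC targets and ribosome biogenesis genes it was -0.43 in Farage, less than the -1.03 in SUDHL6 and the -1.75 in SUDHL4. Over the 8379 shared genes that Farage expresses, the median was -0.28 in Farage, -0.18 in SUDHL6 and -0.31 in SUDHL4.

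MYC in Farage was at 147.6 ± 17.7 CPM with inhibitor and 177.8 ± 10.3 CPM with DMSO (SD, n = 3). BNIP3 was at 151.4 ± 1.62 CPM with inhibitor and 28.2 ± 2.63 CPM with DMSO in Farage, a change of 2.39 beside 0.23 in SUDHL6 and 2.26 in SUDHL4. GSR was at 296.2 ± 24.9 CPM with inhibitor and 94.7 ± 2.43 CPM with DMSO, a change of 1.63 beside 1.49 in SUDHL6 and 0.20 in SUDHL4. LITAF was at 77.2 ± 2.56 CPM with inhibitor and 19.0 ± 0.764 CPM with DMSO, a change of 1.97 beside 2.48 in SUDHL6 and 0.33 in SUDHL4. BCL6 was at 211.1 ± 10.9 CPM with inhibitor and 204.8 ± 1.86 CPM with DMSO, a change of 0.04 beside -0.35 in SUDHL6 and -1.09 in SUDHL4. These Farage values were not tested against the other lines.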
